A study of Mus musculus with 2 samples.

Results

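Smooth muscle cells of the mouse lung were selected from 2 single-cell libraries by their transcripts. A barcode with at least 200 genes and at most 15% mitochondrial UMIs (unique molecular identifiers, each standing for 1 captured transcript) was taken when it held at least 2 UMIs of Myh11, Actg2, Cnn1 and Des together. At least 2 of these genes or Acta2 and Tagln had to be detected. It could hold at most 1 UMI of the pericyte genes Cox4i2 and Higd1b, at most 1 of the endothelial genes Cdh5 and Cldn5, and none of Ptprc (leukocytes) or Epcam (epithelium). The rule found 371 cells among 26650 kept barcodes, 234 of 14285 in the IgG library and 137 of 12365 in the S100A4-11 library. They are called rule cells below, because the rule and not an independent stain chose them.

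The libraries came from lungs of BALB/c mice, the only genotype the labels give, taken on day 14 after 4T1 mammary carcinoma cells were placed in the mammary fat pad. Mice of one group had received an IgG antibody and those of the other the S100A4-11 antibody, named for S100A4, a calcium-binding protein that is released in many tumours. All mice carried tumours, so no tumour-free lung enters the comparison. Each group had 1 library, and the number of animals behind it is not stated, so no difference below has a replicate check and no test was made. The series title names the pre-metastatic niche as its subject, and ages, sexes and antibody doses are not given in the sources used here.

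Smooth muscle wraps the bronchi, the arteries and the larger veins of the lung. It contracts when calcium activates myosin light chain kinase, which lets smooth muscle myosin pull on alpha and gamma actin filaments, and it relaxes through cyclic nucleotides and myosin phosphatase. The genes of this apparatus share CArG boxes, short motifs bound by serum response factor with its partner myocardin. Pericytes on capillaries and myofibroblasts at alveolar ducts express part of the same genes, which makes a transcript rule for smooth muscle permissive.

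The rule cells of the IgG library held 1003387 UMIs and those of the S100A4-11 library 522450, with medians of 3729.5 and 3485 UMIs and 1792 and 1734 genes per cell. Median mitochondrial shares were 1.52% and 1.58%. No member barcode occurred in both libraries, while 264 of all kept barcodes did. Levels are given as CPM, UMIs of a gene per 1000000 UMIs, both summed over the cells named; the chemistry tags 1 end of a transcript, so CPM does not grow with transcript length. Paired values give the IgG library first, and ratios are S100A4-11 over IgG with exact 95% counting intervals. These intervals treat each UMI as independent and leave out variation between cells, animals and preparations.

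The rule was close to its limit for many cells. In the IgG library 52 members held exactly 2 UMIs of the 4 genes and 51 held over 20; in the S100A4-11 library these numbers were 46 and 19. Just outside, 69 and 64 barcodes met every other condition with 1 UMI. The limit on pericyte genes mattered more than the others. It alone kept out 126 and 74 barcodes with at least 2 UMIs of Cox4i2 and Higd1b, while 44 and 28 members held 1 such UMI. Des, the intermediate filament desmin, was the sole one of the 4 genes in 35 and 27 members. Myh11, smooth muscle myosin heavy chain, was detected in 184 and 96 members, Acta2 in 187 and 101, Actg2 in 123 and 68, and Cnn1 in 77 and 35. All 6 muscle genes were detected in 60 and 25 members.

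Clustering of the members, with the rule genes left out, gave 7 clusters, and the label held for only a part of them. Clusters 0 and 4, with 144 of 371 members (38.8%), carried high contractile levels. Clusters 1 and 2, with 158 members (42.6%), expressed Hhip and Aspn and had lower contractile levels. Cluster 3, with 42 members, carried alveolar fibroblast markers and cluster 6, with 10 members, pericyte markers, so 52 members (14.0%) went against the label. Cluster 5, with 17 members, was set apart by Pcdh7 and Gpc6. At Leiden resolutions of 0.25 and 1 in place of 0.5 there were 7 and 9 clusters, with 44.5% and 44.2% of members in those with at least 1000 CPM of Hhip, against 42.6%. The genes that follow set these clusters apart and are given as a description.

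**Figure D1:**
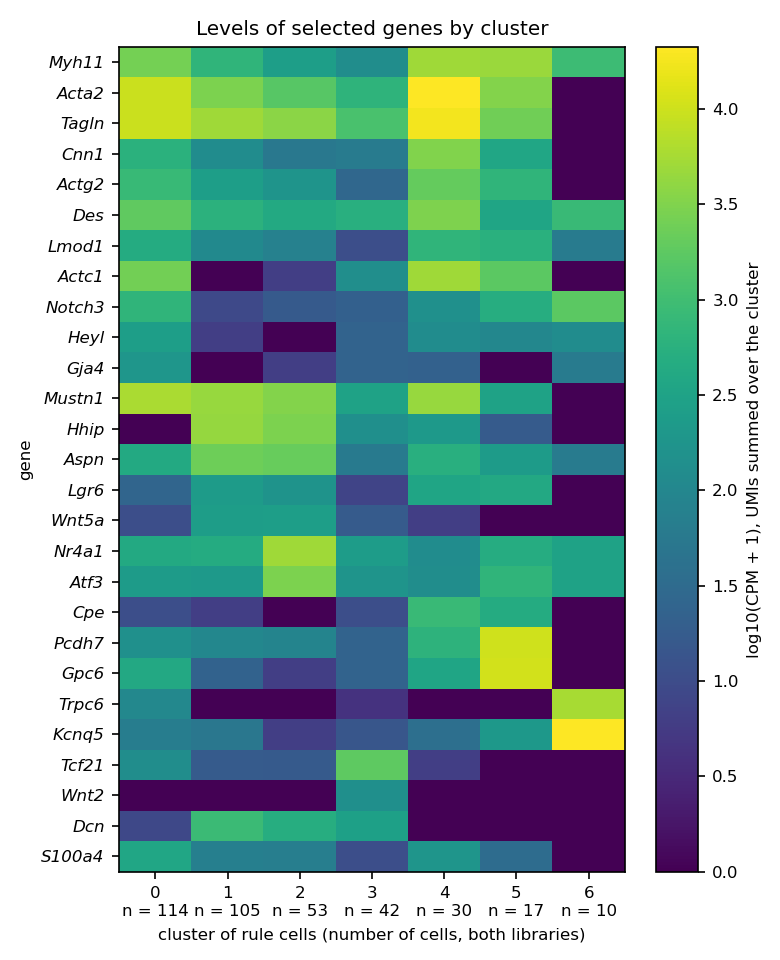
Levels of selected genes in the 7 clusters of rule cells, as log10 of CPM plus 1 with UMIs summed over each cluster and both libraries; columns are clusters with their number of cells and rows are genes. Acta2 and Tagln are highest in cluster 4, Hhip is found in clusters 1 and 2 and at 0 in cluster 0, Pcdh7 and Gpc6 mark cluster 5, and Kcnq5 and Trpc6 mark cluster 6.

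Cluster 0 (114 cells) was vascular smooth muscle-like, with 5 of 9 fixed vascular markers at 2-fold or more (Mustn1, Gja4, Notch3, Heyl and Map3k7cl). Mustn1 is also on the myofibroblast list and was at 5871 CPM in cluster 0 and 4470 CPM in cluster 1. Notch3, a receptor that maintains arterial smooth muscle, was at 676 CPM there and at 8.07 CPM in cluster 1. Its target Heyl was at 261 and 5.38 CPM, and Gja4, a connexin that couples vascular cells, led the cluster with Col8a1, a short-chain collagen. Acta2 reached 9379.9 CPM and Myh11 2604 CPM. The cluster also carried 4 of 11 pericyte markers. These were Cox4i2, which the rule limits, Notch3, which is on both lists, Pdgfrb at 429.8 CPM and Gucy1a1 at 706 CPM. Gucy1a1 is a subunit of the nitric oxide receptor. The 11 pericyte markers summed to 2370 CPM in cluster 0 and to 15571 and 13047.5 CPM in the pericytes, which were chosen by markers of this list. Trpc6, a pericyte marker, was at 103 CPM in cluster 0 and at 1435 and 1223 CPM in the pericytes of the IgG and S100A4-11 libraries.

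Cluster 4 (30 cells) was the most contractile. Acta2 stood at 21138 CPM, Tagln, an actin-binding protein of smooth muscle, at 17431 CPM and Cnn1, the actin-binding calponin, at 3222 CPM. Of 10 fixed smooth muscle markers, 9 were at 2-fold or more, 3 of them (Lmod1, Smtn and Synpo2) not used by the rule. Its leading genes were Grp, a bronchoconstrictor neuropeptide, the troponin Tnnt2, and Cpe, a carboxypeptidase that trims peptides, at 865 CPM. It carried 3 of 6 airway smooth muscle markers at 2-fold or more (Lgr6, Chrm2 and the rule gene Actg2) and 1 of 9 vascular ones (Map3k7cl). Chrm2, a muscarinic receptor of airway muscle, was at 279.5 CPM. The airway marker Hhip was at 206 CPM, against 4403 CPM in cluster 1. Notch3 was at 148 CPM, against 676 CPM in cluster 0. The cluster was given no vessel or airway name. Its cells were deep, with a median of 6603 UMIs against 3360 in cluster 0.

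Clusters 1 (105 cells) and 2 (53 cells) shared Hhip, an inhibitor of hedgehog ligands, at 4403 and 3014 CPM. Aspn, a small proteoglycan that binds TGF-beta, was at 2351 and 2090.4 CPM. Cluster 1 carried 3 of 6 airway smooth muscle markers (Hhip, Lgr6 and Wnt5a) and 3 of 8 myofibroblast markers (Aspn, Tgfbi and Hhip), and stayed unnamed. Acta2 was at 2964 and 1621 CPM and Cnn1 at 124 and 52.8 CPM, well under cluster 4. Cluster 2 differed by immediate early genes, with Nr4a1, an orphan nuclear receptor, at 5026 CPM against 452 CPM in cluster 1. Atf3, a stress transcription factor, was at 2998 against 207 CPM. Cluster 2 also carried 2 of 9 neutrophil markers at 2-fold or more (S100a8 and S100a9), and S100a9 was detected in 37.7% of its cells. The 9 markers summed to 4635 CPM there and to between 258 and 868 CPM in the other clusters.

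Hhip and Notch3 were seldom detected in the same member, and 54 and 37 members held neither. In the IgG library 96 cells held Hhip without Notch3, 81 held Notch3 without Hhip and 3 held both; in the S100A4-11 library these were 59, 39 and 2. Hhip and Aspn were found together in 90 and 55 cells, and Hhip without Aspn in 9 and 6. Because both genes helped to build the clusters, these counts describe the cells and test nothing.

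Cluster 3 (42 cells) held all 11 alveolar fibroblast markers at 2-fold or more, among them Tcf21, a fibroblast transcription factor, at 1806 CPM and the ligand Wnt2. Acta2 was at 645 CPM and Myh11 at 129.7 CPM there. Clusters 5 and 6 held few ribosomal transcripts. Ribosomal protein genes made up 1.42% and 0.825% of their UMIs, against 9.26% to 12.8% in the other clusters, and Malat1, a nuclear RNA, was at 31188 and 49786 CPM against 7516 to 10877 CPM. Cluster 5 still held Myh11 at 4687 CPM and 5 of 10 smooth muscle markers. Cluster 6 held Trpc6 at 5766 CPM and Kcnq5, a potassium channel, at 20460.0 CPM.

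**Figure D2:**
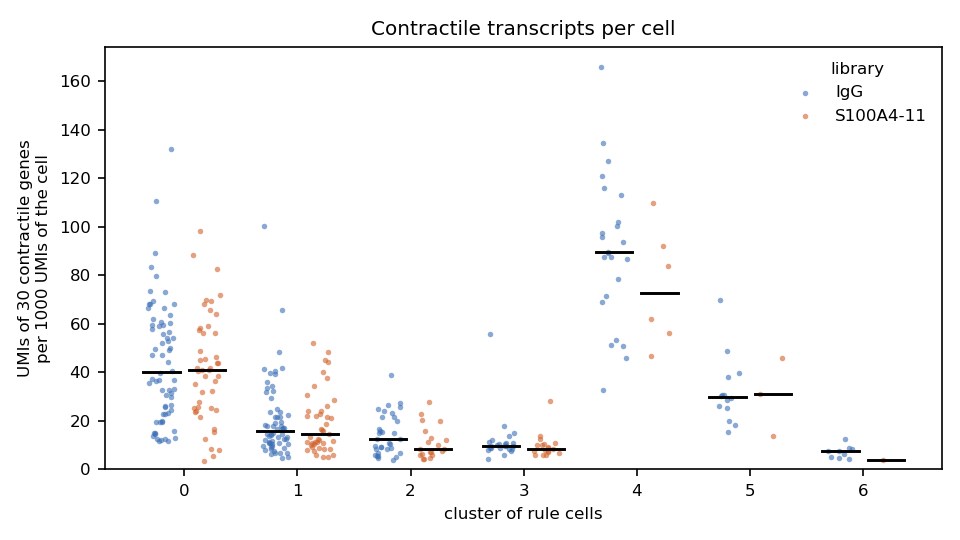
UMIs of the 30 listed contractile genes per 1000 UMIs of each cell, by cluster and library; each point is 1 cell and the black bars are medians. Cluster 4 lies highest in both libraries, with medians of 89.5 and 72.7, followed by cluster 0 with 40.1 and 40.8, and clusters 1 to 3 lie lower.

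Rule cells were set beside pericytes (chosen by Cox4i2 and Higd1b), fibroblasts (Col1a2, Dcn and Pdgfra) and endothelial cells (Cdh5 and Cldn5) of the same libraries. Each comparison cell held fewer than 2 UMIs of Myh11, Actg2, Cnn1 and Des together. That limit favours muscle genes in the rule cells, also those the rule did not name, so the folds describe the cells and test nothing. Of 555 genes at 200 CPM or more in the members of both libraries, 35 were at 2-fold or more of the highest comparison cells. Actc1, cardiac alpha actin, led with at least 38.1-fold in both libraries, at 1726 and 739 CPM against 0.890 and 0.499 CPM in fibroblasts. Tropomyosin Tpm2 (18.4-fold), the microtubule protein Map1b (14.4-fold), the Z-disc protein Tcap (13.3-fold) and Mustn1 (12.2-fold) followed; each fold is the lower of the 2 libraries. Lmod1, which nucleates actin filaments, was at 10.7-fold. Next came Csmd1 (9.51-fold), Gpc6 (8.51-fold), Pcdh7 (6.94-fold), Aspn (6.86-fold) and Thsd4 (6.37-fold). Of these, Gpc6, Pcdh7 and Thsd4 were highest in cluster 5. Aspn, Ccdc3 (5.57-fold) and Hhip (5.50-fold) were highest in cluster 1. The Gq inhibitor Rgs2 was at 6.02-fold.

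Actc1 is a heart gene in the adult, so the other heart markers were read beside it. Of 12 cardiomyocyte markers, 5 were detected in the rule cells of the IgG library and 8 in those of the S100A4-11 library. Tnnt2, Myl4, Ryr2 and Pln were found beside Actc1 in both. Myl7, Nppa, Sln and Mb were at 0 UMIs in both libraries, and Myh6, Tnni3 and Tnnc1 also in the IgG library. In cluster 4 Actc1, Tnnt2 and Ryr2 were at 2-fold or more. Summed over the 12 markers the level was 1892 and 791 CPM, of which Actc1 alone gave 1726 and 739 CPM. Actc1 was at 2533 CPM in cluster 0, 5095 CPM in cluster 4 and 0 in cluster 1. In the IgG library 5 cells held it together with Hhip and 66 held it without Hhip; in the S100A4-11 library these were 0 and 33.

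CArG boxes were looked for in the promoters of the contractile list, a list whose genes include known targets of serum response factor. The motif, searched by its name as CC, then 6 of A or T, then GG, is its own reverse complement in form, so a search of both strands finds each box once. RefSeq windows of 300 bases, from 250 before to 50 after a start site on GRCm38.p6, were given for 25 of 30 listed genes. A box lay in 6 of their 31 windows (19.4%) and in 535 of all 32851 windows (1.63%); by gene these were 5 of 25 (20%) and 488 of 27025 (1.81%). The genes were Filip1l, Ldb3, Myl6, Myl9 and Vcl, of which Ldb3 alone was called lower between the libraries; of genes outside the list, Actc1 was looked up because it led the profile. A match is a run of letters and not a shown binding site. The bases before the start site are printed for Actc1, Myl9, the regulatory light chain, and Myl6, the essential light chain, 5′ to 3′ on the gene's strand, with the box in capitals.
Actc1: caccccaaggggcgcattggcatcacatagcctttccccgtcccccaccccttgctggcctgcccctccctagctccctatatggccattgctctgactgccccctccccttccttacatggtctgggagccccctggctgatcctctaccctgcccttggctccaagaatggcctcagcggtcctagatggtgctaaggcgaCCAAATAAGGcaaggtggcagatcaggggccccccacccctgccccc
Myl9: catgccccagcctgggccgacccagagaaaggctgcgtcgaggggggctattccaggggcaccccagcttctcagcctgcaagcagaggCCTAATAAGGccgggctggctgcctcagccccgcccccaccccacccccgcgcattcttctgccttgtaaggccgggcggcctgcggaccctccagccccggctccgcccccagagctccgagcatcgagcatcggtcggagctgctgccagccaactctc
Myl6: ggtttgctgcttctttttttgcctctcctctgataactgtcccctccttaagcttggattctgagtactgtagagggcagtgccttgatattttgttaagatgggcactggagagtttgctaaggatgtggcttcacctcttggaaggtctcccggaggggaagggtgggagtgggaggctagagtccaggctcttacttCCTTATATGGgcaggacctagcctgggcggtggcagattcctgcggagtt
The Actc1 window is chr2:114052826-114053125 on the minus strand, with the box starting 47 bases before the start site. The Myl9 window is chr2:156775214-156775513 on the plus strand, with the box 161 bases before the start. The Myl6 window is chr10:128492960-128493259 on the minus strand, with the box 50 bases before the start. All 3 genes were at 5095, 7009 and 7605 CPM in cluster 4 and at 0, 1148 and 2539 CPM in cluster 1, in that order of genes.

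Rule cells made up 1.64% (1.44 to 1.86) of kept barcodes in the IgG library and 1.11% (0.931 to 1.31) in the S100A4-11 library, a ratio of 0.676 (0.544 to 0.839). With every barcode thinned to 1000 UMIs the shares were 1.48% and 0.915%, a ratio of 0.619; 953 and 889 shallower barcodes were left out. Other stromal cells also had smaller shares. Pericytes were 52 and 24 cells (ratio 0.533, 0.314 to 0.881) and fibroblasts 522 and 340 cells (0.752, 0.654 to 0.864). Among rule cells, pericytes and fibroblasts alone, rule cells were 29.0% (25.9 to 32.2) and 27.3% (23.5 to 31.5), a ratio of 0.944 (0.759 to 1.17). The interval of the share over all barcodes excluded 1, and that among these stromal cells included it. Recovery of cells from tissue can differ between preparations, and its part was not tested.

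Between the libraries, a gene is called higher or lower here at a ratio of at least 1.5 either way with a counting interval that excludes 1. Of 8804 genes with at least 20 UMIs, 240 were higher in the S100A4-11 library (2.73%) and 512 lower (5.82%), together 8.54%. These shares are the background for the list counts over all members below. The median log2 ratio of all 8804 genes was -0.02, and intervals cover counting error only. In the contractile list 13 of 30 genes were lower and none higher, and 29 of 30 lay below 0, with a median log2 ratio of -0.54. Of the 24 listed genes that the rule did not use, 10 were lower and none higher, with a median of -0.52. All 30 were summed at 39597 CPM in the IgG library and 27339 CPM in the S100A4-11 library. The rule required some of these transcripts in each cell, so it limits how far they can fall.

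Cnn1 differed most, at 807 and 253 CPM, a ratio of 0.313 (0.258 to 0.377). Cluster 4 held 70.0% of its IgG UMIs and 33.3% of its S100A4-11 UMIs. Acta2 was at 7199.6 and 4443 CPM, a ratio of 0.617 (0.589 to 0.647). Myh11 was at 1995 and 1248 CPM, a ratio of 0.625 (0.572 to 0.684). Tagln, Actg2 and Des were not called, with ratios of 0.686 (0.656 to 0.717), 0.774 (0.667 to 0.897) and 0.786 (0.710 to 0.870). Outside the rule genes, lower members were the alpha actinin Actn1 (568 and 255 CPM, ratio 0.448, 0.368 to 0.542), the actin-bundling Synpo2 (369 and 168 CPM, ratio 0.457, 0.358 to 0.578) and the myosin phosphatase subunit Ppp1r12a (535 and 251 CPM, ratio 0.469, 0.384 to 0.568). Caldesmon, Cald1, which restrains actomyosin, was lower too (1012 and 649 CPM, ratio 0.641, 0.566 to 0.726), as was smoothelin, Smtn (183 and 119 CPM, ratio 0.647, 0.477 to 0.867). Myosin light chain kinase Mylk (919.9 and 685 CPM, ratio 0.745, 0.657 to 0.843), Tpm2 (0.669, 0.614 to 0.727) and the light chain Myl9 (0.691, 0.640 to 0.746) were below 1 and not called. Ppp1r14a, an inhibitor of myosin phosphatase, was the one member above 0, at 664 and 748 CPM (ratio 1.13, 0.993 to 1.28).

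The mix of clusters differed between the libraries, and its part in these values was not tested. Clusters 4, 5 and 6 together held 47 of 234 members (20.1%) and 23% of member UMIs in the IgG library, and 10 of 137 (7.30%) and 6.74% in the S100A4-11 library. The clusters were built on genes that differ, so these counts describe the cells behind the values and are no result of their own. They held 52.0% of the IgG UMIs of Acta2 and 19.4% of its S100A4-11 UMIs, and leaving them out was chosen after seeing the data. Without these clusters 1 of 30 contractile genes was lower, with a median of -0.21, against 3.14% of all genes tested there. That gene was Cnn1, at 287 and 179 CPM (ratio 0.621, 0.479 to 0.80). Acta2 was then at 4484 and 3840.2 CPM (ratio 0.856, 0.809 to 0.906) and Myh11 at a ratio of 0.764 (0.681 to 0.856). Without cluster 4 alone 6 of 30 were lower (median -0.27), against 6.43% of all genes. Without clusters 5 and 6 alone it was 14 of 30 (median -0.52), against 3.56%. With every cell given the same weight 7 of 30 were lower (median -0.33), against 10.0% of all genes.

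Within the vascular smooth muscle-like cluster 0 most contractile genes were not called. Acta2 had a ratio of 0.938 (0.878 to 1.0), Des 0.982 (0.845 to 1.14) and Actg2 1.17 (0.931 to 1.46). Myh11 was at 0.783 (0.687 to 0.892), not past 1.5-fold, and Cnn1 was lower at 0.634 (0.471 to 0.844). Of 28 listed genes with enough UMIs there, 2 were lower, with a median of -0.18, against 3.71% of all genes. Within clusters 1 and 2 it was 2 of 29, with a median of -0.32, against 2.45% of all genes. Acta2 there was at 0.680 (0.605 to 0.764), not past 1.5-fold. In cluster 0 8 of 20 immediate early and dissociation genes were higher, against 1.89% of all genes there, and their part in these values was not tested. Actc1 was lower over all members, at 1726 and 739 CPM (ratio 0.428, 0.382 to 0.478), and within cluster 0 too, at 3008 and 1815 CPM (ratio 0.603, 0.524 to 0.693).

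**Figure D3:**
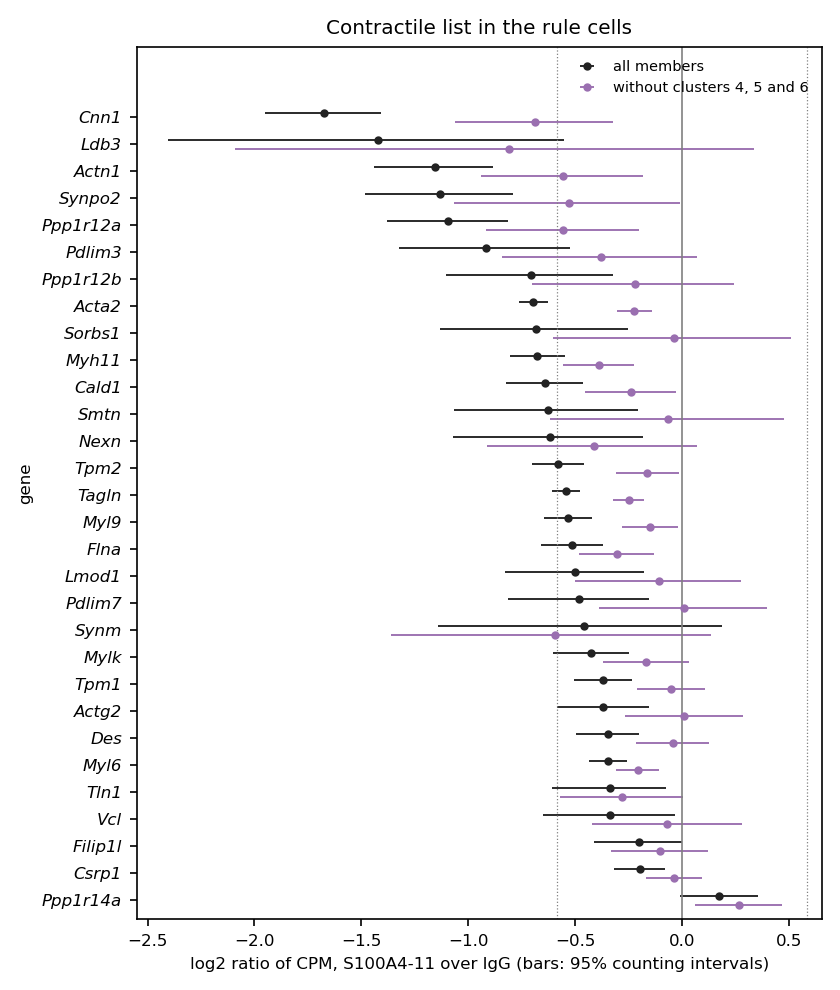
Log2 ratio of CPM, S100A4-11 over IgG, for the 30 contractile genes in all rule cells (black) and without clusters 4, 5 and 6 (purple), with 95% counting intervals; dotted lines mark 1.5-fold. Over all members 29 genes lie below 0, and without the 3 clusters the points lie closer to 0 except those of Synm and Ppp1r14a. Cnn1, Ldb3 and Synm then lie past the line, and of these 3 only the interval of Cnn1 excludes 0. Several genes not past the line, among them Acta2 and Myh11, also have intervals that exclude 0.

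Of 18 regulators of the smooth muscle programme 2 were lower and 1 higher (median -0.07), against 5.82% and 2.73% of all genes. Myocd, the coactivator myocardin, was lower at 107 and 55.5 CPM (ratio 0.521, 0.333 to 0.791), and Mrtfb, a related coactivator, at 45.8 and 15.3 CPM (ratio 0.334, 0.136 to 0.715). Myocd without clusters 4, 5 and 6 was at 0.727 (0.418 to 1.23), which was not called. Serum response factor itself, Srf, was at 34.9 and 21.1 CPM (ratio 0.604, 0.277 to 1.22) with a wide interval. Klf4, which represses contractile genes, was at 88.7 and 107 CPM (ratio 1.21, 0.849 to 1.71). Tcf21 was higher at 292 and 597 CPM (ratio 2.05, 1.74 to 2.41), with 38.8% of its S100A4-11 UMIs in 1 cell. Its level was 1806 CPM in the fibroblast-like cluster 3, and without clusters 3 and 6 its ratio was 1.03 (0.577 to 1.78).

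Calcium handling and ion channel genes lay lower as a list, with 9 of 25 lower, 1 higher and a median of -0.52. Over all genes 5.82% were lower and 2.73% higher. Cacna1c, the pore of the L-type calcium channel that starts contraction, was at 1108 and 486 CPM (ratio 0.439, 0.381 to 0.503). Kcnma1, the large-conductance potassium channel that opposes it, was at 132 and 44.0 CPM (ratio 0.335, 0.205 to 0.524). Ryr2, a calcium release channel, was at 73.8 and 28.7 CPM (ratio 0.389, 0.208 to 0.684), and Slc8a1, the sodium-calcium exchanger, at 198 and 93.8 CPM (ratio 0.473, 0.339 to 0.649). In contrast Kcnj8, a pore of ATP-sensitive potassium channels, was higher at 112 and 184 CPM (ratio 1.65, 1.24 to 2.18); its level was 312 CPM in cluster 1 and 52.8 CPM in cluster 0. Cluster 5 held 43.3% of the IgG UMIs of Cacna1c and 12.2% of the S100A4-11 UMIs. Without clusters 4, 5 and 6 2 of 24 genes in the list were lower (median -0.16, against 3.14% of all genes), with Cacna1c still called at 0.648 (0.547 to 0.766). Within cluster 0 3 of 17 were lower, against 3.71% of all genes.

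Of 19 receptors for contractile and relaxing signals 3 were lower and none higher (median -0.20), against 5.82% and 2.73% of all genes. Chrm2 was at 82.7 and 38.3 CPM (ratio 0.463, 0.269 to 0.761), the serotonin receptor Htr2a at 36.9 and 9.57 CPM (ratio 0.260, 0.0796 to 0.662) and the ATP-gated channel P2rx1 at 26.9 and 7.66 CPM (ratio 0.285, 0.0723 to 0.817). These rested on few UMIs and were highest in clusters 4 (Chrm2 and P2rx1) and 5 (Htr2a). The endothelin receptors were not called between libraries. Ednra was at 195 and 232 CPM (ratio 1.19, 0.937 to 1.49), with 297 CPM in cluster 0 and 172 CPM in cluster 1. Ednrb was at 152 and 122 CPM (ratio 0.803, 0.590 to 1.08), with 52.8 and 320.1 CPM. Tbxa2r, the thromboxane receptor, was at 133 CPM in cluster 0 and 18.8 CPM in cluster 1. Gucy1a1 and Gucy1b1, which form the nitric oxide receptor, had ratios of 1.16 (0.949 to 1.41) and 0.969 (0.767 to 1.22).

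In cyclic nucleotide signalling 5 of 19 genes were lower (median -0.42), against 5.82% of all genes. Prkg1, the kinase through which nitric oxide relaxes muscle, was at 965 and 586 CPM (ratio 0.607, 0.532 to 0.691), and the phosphodiesterase Pde3a at 306 and 139.7 CPM (ratio 0.457, 0.349 to 0.591). Adcy5, an adenylyl cyclase, was at 167 and 82.3 CPM (ratio 0.492, 0.343 to 0.691). Clusters 5 and 6 held the highest levels of Prkg1, at 5979 and 8804 CPM, and of Pde3a, at 2402 and 1488 CPM. Without clusters 4, 5 and 6 1 of 18 was lower (median -0.10, against 3.14% of all genes), and Prkg1 was at 0.971 (0.830 to 1.13). None of 8 Notch genes was called (median -0.03), with Notch3 at 238 and 245 CPM (ratio 1.03, 0.823 to 1.28).

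Matrix genes showed no shared direction. Of 41 elastic fibre and matrix genes 2 were higher and 4 lower (median 0.03), against 2.73% and 5.82% of all genes. Elastin, Eln, which rings arteries and airways, was at 515 and 364 CPM (ratio 0.706, 0.595 to 0.835), and Mgp, an inhibitor of calcification, at 1770.0 and 2444 CPM (ratio 1.38, 1.28 to 1.48), neither called. Dcn, the proteoglycan decorin, was higher at 277 and 436 CPM (ratio 1.58, 1.32 to 1.88), and Fbln1, a fibulin, at 162 and 247 CPM (ratio 1.52, 1.20 to 1.93); among the clusters both were highest in cluster 1, with Dcn at 871 CPM there and 7.54 CPM in cluster 0. Of 7 adventitial fibroblast markers with enough UMIs, 4 were higher (Dcn, Ly6a, Serpinf1 and Dpep1), against 2.73% of all tested genes. The part of such markers in these values was not tested. Cspg4, the NG2 proteoglycan of mural cells, was lower at 116 and 40.2 CPM (ratio 0.348, 0.207 to 0.557), and Vcan, versican, at 81.7 and 34.5 CPM (ratio 0.422, 0.238 to 0.708). Collagens Col1a1, Col1a2 and Col3a1 had ratios of 1.23 (1.05 to 1.43), 0.984 (0.846 to 1.14) and 1.03 (0.935 to 1.14).

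Genes that anchor muscle to its basement membrane lay lower, with 8 of 25 lower and none higher (median -0.39). Over all genes 5.82% were lower and 2.73% higher. Dmd, dystrophin, was at 865 and 327 CPM (ratio 0.378, 0.319 to 0.446) and Sgcd, delta-sarcoglycan of the same complex, at 327 and 195 CPM (ratio 0.597, 0.473 to 0.748). Integrins Itga1 (229 and 124 CPM, ratio 0.543, 0.406 to 0.718) and Itga8 (649 and 425 CPM, ratio 0.655, 0.560 to 0.764) were lower as well. Cluster 5 held 55.2% of the IgG UMIs of Dmd and 16.4% of its S100A4-11 UMIs. Without clusters 4, 5 and 6 none of 24 was called lower by the same rule (median -0.18, against 3.14% of all genes), and Dmd was at 0.777 (0.621 to 0.968).

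Long genes were common among those lower in the S100A4-11 library. The 512 lower genes had a median genomic span of 116 kb, with 54.9% at 100 kb or more, against 27.1 kb and 16.1% for all tested genes and 15.2 kb for the higher genes. Without clusters 5 and 6, where Malat1 was high and ribosomal transcripts low, 305 genes were lower and their median span was 46.5 kb, with 33.4% at 100 kb or more. Malat1 over all members was at 11213 and 10187 CPM, and ribosomal protein genes at 101965 and 112455 CPM.

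Among the named genes ranked by the counting interval, several of the lower ones had most of their IgG UMIs in clusters 4 to 6. Cpe was at 183 and 32.5 CPM (ratio 0.177, 0.101 to 0.292), and those clusters held 97.8% of its IgG UMIs. Pcdh7, a protocadherin, was at 738 and 218 CPM (ratio 0.296, 0.241 to 0.361), with 89.6% there, and Ctnna3, an alpha catenin of heart and muscle, at 541 and 153 CPM (ratio 0.283, 0.221 to 0.358), with 70.5%. Myom1, a sarcomere crosslinker, was at 205 and 59.3 CPM (ratio 0.289, 0.191 to 0.423), with 78.6%. Without clusters 4, 5 and 6 Ctnna3 (0.545, 0.394 to 0.745) and Myom1 (0.360, 0.162 to 0.727) were still called lower, and Pcdh7 was at 0.885 (0.595 to 1.30). Kalrn, a guanine nucleotide exchange factor, was at 274 and 95.7 CPM (ratio 0.349, 0.253 to 0.473). Kcnq5 was at 334 and 124 CPM (ratio 0.373, 0.281 to 0.487), with 85.7% of its IgG UMIs in cluster 6, and its ratio was 1.11 without clusters 5 and 6. Clu, the chaperone clusterin, was at 559 and 151 CPM (ratio 0.270, 0.211 to 0.343), and 1 cell gave 56.9% of its IgG UMIs. Cxcl13, a chemokine, was at 202 and 1.91 CPM (ratio 0.00946, 0.000238 to 0.0533), and 1 cell gave 99.5% of its IgG UMIs. Sftpc, a surfactant gene of alveolar epithelium, was at 246 and 76.6 CPM (ratio 0.311, 0.217 to 0.436); the 13 epithelial markers were summed at 482 and 251 CPM in the rule cells and at 13937 and 6781 CPM over all kept barcodes, with Epcam at 0 by the rule, and their part in this value was not tested.

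Cdk8, Gpx3 and Apoe were among the higher named genes at high levels. Gpx3, a secreted glutathione peroxidase, was at 1482 and 2498 CPM (ratio 1.69, 1.56 to 1.82), with ratios of 1.44 (1.25 to 1.66) in cluster 0 and 1.74 (1.47 to 2.05) in clusters 1 and 2. Cdk8, a kinase of the mediator complex, was at 9869 and 16749.9 CPM (ratio 1.70, 1.65 to 1.75). Of its S100A4-11 UMIs 18.8% were in 1 cell, and its ratio in cluster 0 was 1.64 (1.55 to 1.73). Malat1 was at 11213 and 10187 CPM in the same rule cells. Whether all UMIs counted as Cdk8 came from the transcript of this kinase was not tested. In fibroblasts Cdk8 was at 9719.6 and 12383 CPM and Gpx3 at 3000.4 and 3691 CPM. In pericytes they were at 11438 and 19707 CPM and 1358 and 3534 CPM, and in endothelial cells at 10367 and 13602 CPM and 299 and 250.4 CPM. Apoe, the lipid carrier, was at 1128 and 1709 CPM (ratio 1.52, 1.39 to 1.66), and Igfbp3, which binds insulin-like growth factors, at 353 and 609 CPM (ratio 1.73, 1.48 to 2.01). Ifitm1, an interferon-induced membrane protein, was at 278 and 542 CPM (ratio 1.95, 1.65 to 2.31) and was highest in cluster 0 at 892 CPM. Snhg8, a small nucleolar RNA host gene, was at 116 and 207 CPM (ratio 1.79, 1.36 to 2.34), and Pltp, which moves phospholipids between lipoproteins, at 84.7 and 188 CPM (ratio 2.21, 1.64 to 3.0). Dpep1, a dipeptidase at 106 and 212 CPM (ratio 2.01, 1.53 to 2.65), was found in cluster 3 at 712 CPM and in cluster 0 at 5.03 CPM. With clusters 4, 5 and 6 left out, the ratio of Gpx3 was 1.402, that of Apoe 1.261 and that of Igfbp3 1.424. These ratios were under 1.5 and not called, though their intervals excluded 1. Cdk8 (1.584), Ifitm1 (1.626) and Dpep1 (1.676) were still called higher there.

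**Figure D4:**
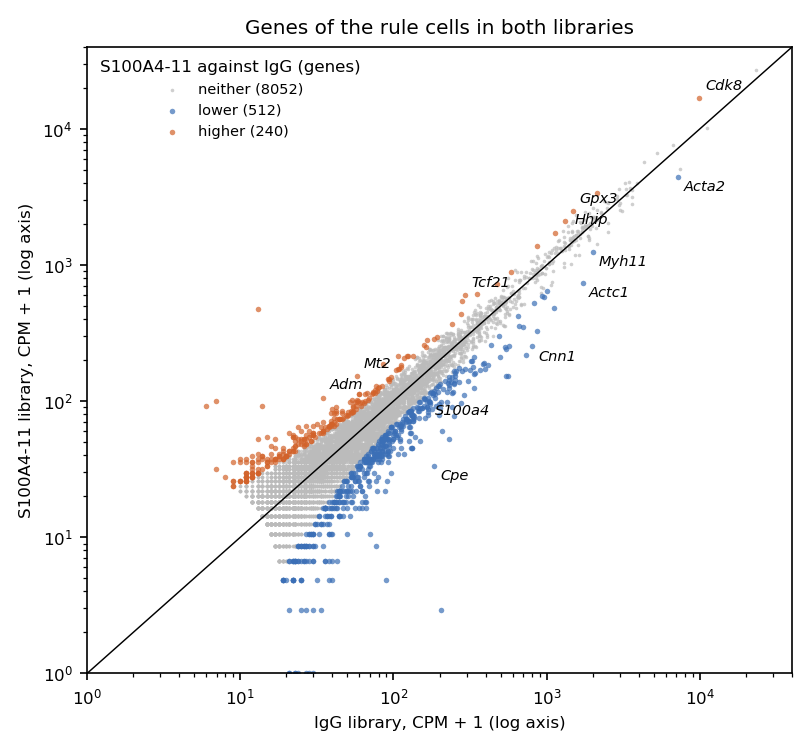
CPM plus 1 of each tested gene in the rule cells of the IgG library (horizontal) and the S100A4-11 library (vertical), both on log axes, with genes called higher or lower coloured and some labelled; the line marks equal levels. There are 240 higher and 512 lower genes, with Cdk8 and Gpx3 the labelled higher genes at high level and Acta2, Myh11 and Actc1 the labelled lower ones.

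Growth factor genes had 4 of 25 members higher and 2 lower (median 0.16), against 2.73% and 5.82% of all genes. Igf1, a growth factor for muscle, was at 75.7 and 128 CPM (ratio 1.69, 1.20 to 2.38), and its binding protein Igfbp4 at 123 and 212 CPM (ratio 1.73, 1.33 to 2.26), with 34.2% of its S100A4-11 UMIs in 1 cell. Igf2 was higher on few UMIs, at 9.97 and 36.4 CPM (ratio 3.65, 1.61 to 8.79). Pdgfd, a ligand of mural cell receptors, was lower at 61.8 and 15.3 CPM (ratio 0.248, 0.102 to 0.519), and Fgf7 at 125 and 70.8 CPM (ratio 0.568, 0.383 to 0.826). The receptor Pdgfrb was at 187 and 220.1 CPM (ratio 1.17, 0.923 to 1.49). Of 31 genes of TGF-beta, BMP and WNT signalling, Id4, a BMP target, was higher at 192 and 293 CPM (ratio 1.52, 1.22 to 1.89), and Bmpr1a (184 and 111 CPM, ratio 0.602, 0.440 to 0.813) and Lgr6 (168 and 97.6 CPM, ratio 0.580, 0.415 to 0.797) were lower (list median 0.04). Hhip was at 1378 and 1736 CPM (ratio 1.26, 1.16 to 1.37) and Aspn at 1035 and 1024 CPM (ratio 0.989, 0.889 to 1.10), neither called.

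Genes linked to the synthetic state, in which smooth muscle divides and makes matrix, had 3 of 21 members higher and 1 lower (median 0.20). Over all genes 2.73% were higher and 5.82% lower. Ly6a was at 40.9 and 84.2 CPM (ratio 2.06, 1.32 to 3.23) and Vcam1, an adhesion molecule, at 111 and 178 CPM (ratio 1.61, 1.21 to 2.14); the cell with the most UMIs of each gene held 31.8% and 28.0% of their S100A4-11 UMIs. Sox9, a cartilage transcription factor, was lower at 25.9 and 5.74 CPM (ratio 0.222, 0.0429 to 0.723), and 1 cell gave 84.6% of its IgG UMIs. Thbs1, a matricellular protein, was at 849 and 1034 CPM (ratio 1.22, 1.09 to 1.36) and the intermediate filament Vim at 2533 and 2027 CPM (ratio 0.80, 0.744 to 0.860), neither called. Only 2 cell cycle genes had enough UMIs, and neither was called.

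S100a4 was lower in the rule cells of the S100A4-11 library, at 168 and 99.5 CPM (ratio 0.591, 0.424 to 0.811). Its highest level was in cluster 0, at 357 CPM, against 179 CPM in cluster 4 and 72.6 CPM in cluster 1. Cluster 0 held 58.0% of its IgG UMIs and 84.6% of its S100A4-11 UMIs. Within cluster 0 the ratio was 0.680 (0.466 to 0.981), and without clusters 4, 5 and 6 it was 0.587 (0.416 to 0.818). Within clusters 1 and 2 it was 0.238 (0.0729 to 0.611), on few UMIs. Of 52 S100A4-11 UMIs of S100a4, cluster 1 held 0% and cluster 2 9.62%, and 1 cell of cluster 2 held 4. Fibroblasts held 21.4 and 15 CPM and endothelial cells 2.72 and 1.05 CPM, both under the level in rule cells. The transcript does not measure the protein that the antibody binds.

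Of 10 S100 genes 2 were lower and none higher (median -0.03), against 5.82% and 2.73% of all genes. S100a6 was at 1853 and 1642 CPM (ratio 0.886, 0.817 to 0.962) and S100a11 at 924 and 984 CPM (ratio 1.06, 0.954 to 1.19). S100a8 was lower at 124 and 82.3 CPM (ratio 0.666, 0.459 to 0.949) and S100a9 was at 357 and 509 CPM (ratio 1.43, 1.21 to 1.68), both neutrophil genes; 1 cell in each library held 58.7% and 79.3% of the S100a9 UMIs. The 9 neutrophil markers summed to 818 and 1120 CPM in the rule cells, against 36474 and 35768 CPM over all kept barcodes, with Ly6g at 0, and their part in these values was not tested. Of 13 receptors and partners of S100A4, Ager alone was called, at 13 and 91.9 CPM (ratio 7.09, 3.78 to 14.3), with 91.7% of its S100A4-11 UMIs in 1 cell.

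Chemokine and adhesion genes had 3 of 20 members higher and 3 lower (median 0.07), against 2.73% and 5.82% of all genes. Cxcl1, which draws neutrophils, was lower at 204 and 97.6 CPM (ratio 0.478, 0.344 to 0.652), and Ccl2, which draws monocytes, at 27.9 and 9.57 CPM (ratio 0.343, 0.103 to 0.90), and 1 cell gave 60.7% of its IgG UMIs. Il6 was lower on few UMIs, at 20.9 and 5.74 CPM (ratio 0.274, 0.0524 to 0.919). Ccl19, a chemokine for lymphocytes, was higher at 52.8 and 101 CPM (ratio 1.92, 1.29 to 2.87), and the prostaglandin E synthase Ptges at 12 and 51.7 CPM (ratio 4.32, 2.12 to 9.36). Interferon-gamma and MHC class I genes had 3 of 23 higher and 1 lower (median 0.16), against 2.73% and 5.82% of all genes. With at least 4 UMIs of the 4 rule genes required, none of 17 was called, and without clusters 3 and 6 none of 18, against 3.03% and 2.72% of all genes higher in these settings. Over all members H2-T23 was at 67.8 and 105 CPM (ratio 1.55, 1.07 to 2.25) and the MHC class I heavy chain H2-K1 was at 343 and 427 CPM (ratio 1.25, 1.05 to 1.48). Of 12 type I interferon genes Isg15 (25.9 and 65.1 CPM, ratio 2.51, 1.46 to 4.36) and Isg20 (31.9 and 57.4 CPM, ratio 1.80, 1.06 to 3.06) were higher; 1 cell held 47.1% of the S100A4-11 UMIs of Isg15.

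Immediate early genes, which also respond to tissue dissociation, had 2 of 24 higher and none lower (median 0.17), against 2.73% and 5.82% of all genes. Ier2 was at 581 and 892 CPM (ratio 1.54, 1.36 to 1.74), but at 0.977 (0.796 to 1.20) with at least 4 UMIs of the 4 rule genes required. Klf10 was at 40.9 and 80.4 CPM (ratio 1.97, 1.25 to 3.10), while Fos was at 3322 and 3254 CPM (ratio 0.980, 0.923 to 1.04) and Junb at 3260.0 and 4008 CPM (ratio 1.23, 1.16 to 1.30). Within cluster 0 8 of 20 were higher (median 0.45), against 1.89% of all genes there. Within clusters 1 and 2 it was 1 of 23 (median -0.02), against 2.18%. Heat shock genes had 1 of 19 lower (median -0.22), the muscle chaperone Hspb7 at 248 and 134 CPM (ratio 0.540, 0.408 to 0.706), which was at 1.01 without cluster 4. Of the glucocorticoid and clock genes Zbtb16, a glucocorticoid target, was lower at 221 and 115 CPM (ratio 0.519, 0.384 to 0.693); Mt2, a metallothionein, was higher at 56.8 and 151 CPM (ratio 2.66, 1.87 to 3.81) with 43.0% of its S100A4-11 UMIs in 1 cell. Of 19 hypoxia and glycolysis genes Adm, the vasodilator adrenomedullin, was higher at 33.9 and 105 CPM (ratio 3.11, 1.99 to 4.91) and the glucose transporter Slc2a1 at 20.9 and 55.5 CPM (ratio 2.65, 1.46 to 4.89).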

How the data were processed

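The 2 lung libraries, 1 per antibody group, were made with a 10x 5′ kit and sequenced on DNBseq, per the labels' protocols, whose text speaks of tumour tissue while the tissue label is lung. The deposited values are counts of UMIs per gene and barcode, made by the authors with Cell Ranger 7.1.0 on mm10, per the submitters' processing notes. The count matrices held 32286 features and 14411 and 12506 barcodes, with 85458143 and 64695542 UMIs. Barcodes under 200 genes (67 and 101) and then over 15% mitochondrial UMIs (59 and 40) were removed. No correction for free RNA was made. Scrublet called 627 and 615 doublets, 2 and 3 of them rule cells, and these were kept.

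Counts were summed over members per library. Ratios carry exact binomial 95% intervals, and genes with at least 20 UMIs were compared. With 1 library per group no test was possible. Members were clustered with scanpy 1.11.5 and leidenalg 0.10.2 (1000 variable genes, 20 components, 10 neighbours, resolution 0.5); TMM factors from edgeR 4.0.16 served as an alternative scaling. Gene spans came from the GRCm38 annotation. The ratios, their intervals and the calls were tested on simulated counts with known folds, drawn without variation between cells.

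The members and lists were chosen with earlier results of these data known. Named genes were, outside the rule genes, mitochondrial, ribosomal, haemoglobin, variable-segment, Xist and Y-linked genes, the 12 highest and 12 lowest by the interval bound nearest 1 (at least 100 CPM and 20 UMIs in 1 library), up to 4 per list by that bound, and the 15 leading profile genes (at least 200 CPM), with S100a4 and the rule genes added. Other genes were named after their values were seen, and some genes that the rule picks are not reported here. Alternatives changed the cell filters, the rule, weighting, depth, scaling, doublets, gene minimum and clusters kept.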

Additional observations from a re-analysis of the deposited data

How the results depend on the processing

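The share ratio of 0.676 lay between 0.619 and 0.694 in 6 settings, and other scalings shifted the median of all genes by at most 0.03 on the log2 scale. Counts of called genes moved more, from 240 higher (2.73% of tested genes) and 512 lower (5.82%). With every cell weighing the same they were 397 higher (4.47%) and 890 lower (10.0%). With at least 50 UMIs per gene 143 were higher, but fewer genes were tested and the share was 2.70%. Settings on the cluster mix were chosen after seeing the data. Without clusters 5 and 6 305 genes were lower (3.56%), and without clusters 4, 5 and 6 255 were lower (3.14%). Within cluster 0 71 were higher (1.89%) and 139 lower (3.71%), and within clusters 1 and 2 104 (2.18%) and 117 (2.45%). Fewer cells and genes enter these last settings.

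Some ratios changed side of 1, and the cause was not tested. With at least 4 UMIs of the 4 genes required, Ier2 was at 0.977. Without cluster 4 Hspb7 was at 1.01. Without clusters 5 and 6 Kcnq5 was at 1.11 and Gpc6 at 1.09. Without clusters 4, 5 and 6 Kcnq5 was at 1.11, Hspb7 at 1.02, Gpc6 at 1.23 and Ltbp1 at 1.19. Within cluster 0 Hspb7 was at 1.03, Pde4d at 1.52, Clu at 1.02 and Gpc6 at 1.12. Within clusters 1 and 2 Kcnq5 was at 1.67, Pltp at 0.895, Hspb7 at 1.17, Igfbp4 at 0.993, Id4 at 0.991, Kcnma1 at 1.04 and Bmpr1a at 1.01.

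Named genes under 20 UMIs in a setting were not recomputed there. No paired analysis was possible because each group had 1 library.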

Other observations

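Transcripts of blood cells were uneven in the rule cells. Haemoglobin genes were at 23.9 CPM in the IgG library and 676 CPM in the S100A4-11 library, and 1 cell held 95.1% of the S100A4-11 UMIs of Hbb-bs. Of 12 macrophage and monocyte markers, 6 were detected in the IgG rule cells and 4 in the S100A4-11 rule cells, summed at 68.8 and 51.7 CPM. C1qa, C1qb, C1qc, Marco and Adgre1 had no UMI in either. Il1b, a cytokine of myeloid cells, was at 165 and 279 CPM, with 68.1% and 83.6% of its UMIs in 1 cell. Of 9 vascular smooth muscle markers, summed at 4165 and 4632 CPM, 7 had enough UMIs to compare, with a median log2 ratio of -0.11. Gja4 was higher at a ratio of 2.20 (1.42 to 3.43), and Ntrk3 and Map3k7cl were lower at 0.597 (0.427 to 0.822) and 0.342 (0.210 to 0.536).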
